A study of Mus musculus with 4 samples.

Results

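Small heat shock proteins are a family of stress chaperones, and 7 of their genes, *Cryab*, *Hspb1*, *Hspb2*, *Hspb3*, *Hspb6*, *Hspb7* and *Hspb8*, were examined in PDGFRα reporter+ and PDGFRα reporter- mouse periosteal cells. The rows of the deposited expression table whose symbol is one of these 7 names were taken, of 45802 symbols in the table and 16742 with a value in at least 1 library. All 7 were found, and 6 of them had a value in all 4 libraries, as did 14415 genes in all. The family was chosen from measured values, because the log2 values of these genes in the 4 libraries, and the difference between the populations overall and within each number in the column headings, had been seen. The difference between the populations is therefore given for the members as a description, without a test.

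The mice were male and carried a tamoxifen-inducible CreER under *Pdgfra* control together with the mT/mG reporter, in which recombination replaces membrane tdTomato by membrane GFP. Both populations came from the same kind of animals, given tamoxifen at the age of 2 months (150 mg/kg per day for 5 days) and used 14 days after the last injection, at 9 to 10 weeks. Cells from the hindlimb periosteum were grown for 1 passage with 15% FBS and 10 ng/mL bFGF, and cells without CD31, CD45 and Ter119 were then sorted into GFP+ cells (PDGFRα reporter+, 2 libraries) and tdTomato+ cells (PDGFRα reporter-, 2 libraries). A population was pooled from 3 to 6 mice according to the labels and from 5 to 8 according to the methods, so that a library is a pool and not an animal. The reporter marks cells in which the promoter was active when tamoxifen was given, and their descendants, and not the level of *Pdgfra* at the time of sorting. Since nothing states that the 2 libraries of a population came from separate cultures, their spread may be technical.

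The deposited unit is a quantile normalized log2 signal, whose linear scale is not stated. Whether it is scaled by transcript length is not known, so levels are compared between libraries for 1 gene and not between genes. In these bulk samples, fewer cells of a type and less RNA per cell cannot be told apart. The headings number the libraries of each population 2 and 3 without saying what the number marks, whereas the labels number the replicates 1 and 2, so that libraries are named here by their population and heading number.

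Values were present for 15423 to 15605 genes per library, with a median of 1.48 in each. *Pdgfra* itself had log2 values of 7.78 and 7.62 in PDGFRα reporter+ libraries 2 and 3 and of 7.87 and 7.44 in PDGFRα reporter- libraries 2 and 3, so that the populations overlapped. All 10 periosteal stromal genes examined had a value in every library and a mean log2 value of at least 0. Among markers of other cells, 11 of 12 macrophage genes were present in all libraries although CD45+ cells had been removed, and of 13 skeletal muscle genes 6 were present in all libraries, each with a mean below 0, and 3 were blank in all.

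Small heat shock proteins share a central α-crystallin domain and assemble into oligomers that hold unfolding proteins in solution without using ATP, until chaperones of the HSPA family refold them or deliver them for degradation. They also bind actin, desmin and other filaments, and several of them are abundant in heart, skeletal muscle and smooth muscle. Heat shock factor 1 induces *Hspb1* and *Cryab* under stress, and stress kinases of the p38 pathway act on the HSPB1 and CRYAB proteins through MAPKAPK enzymes.

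The largest differences for these genes were between the heading numbers. In both populations *Hspb7*, *Hspb1*, *Hspb2*, *Hspb6* and *Cryab* were lower in library 3 than in library 2. Between the populations, *Cryab*, *Hspb1* and *Hspb7* were lower in PDGFRα reporter+ cells within each number by nearly the same amount, *Hspb2* and *Hspb6* were lower in number 3 alone, and *Hspb8* was level throughout.

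**Figure D1:**
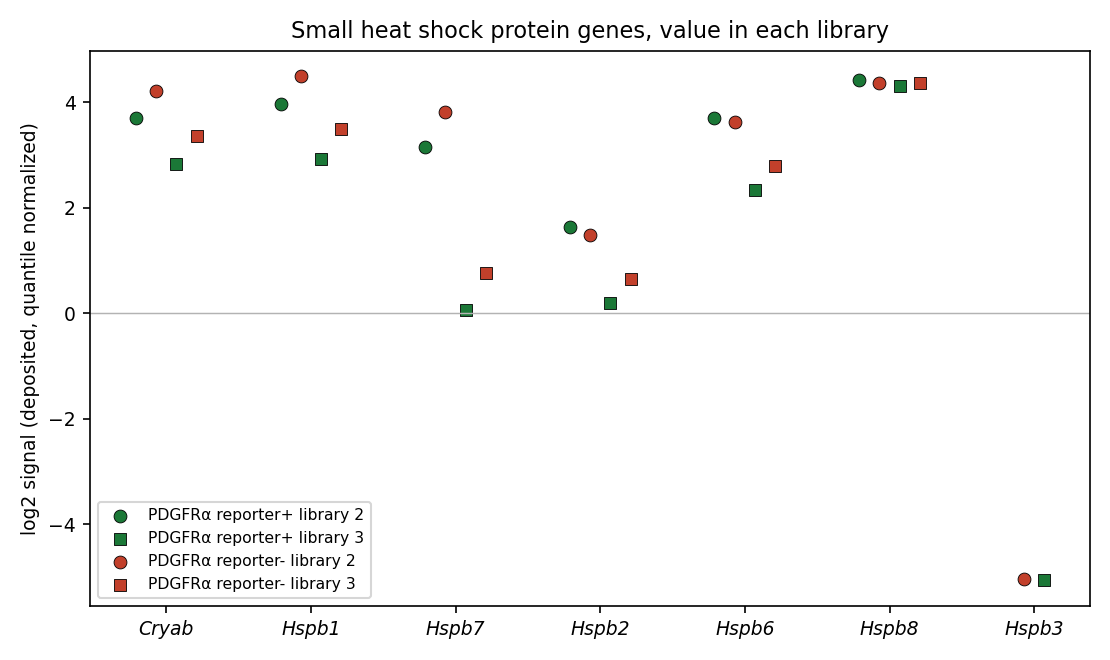
Deposited log2 signal (vertical axis) of the 7 small heat shock protein genes in each library. Green marks PDGFRα reporter+ and red PDGFRα reporter- cells, circles are libraries numbered 2 and squares libraries numbered 3. The squares lie below the circles for *Cryab*, *Hspb1*, *Hspb7*, *Hspb2* and *Hspb6*, the 4 points of *Hspb8* lie between 4.31 and 4.42, and *Hspb3* has 2 points near -5.

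*Hspb1* encodes the widely expressed chaperone known as HSP27 in humans and HSP25 in mice, which protects actin filaments. It lies at chr5:135887919-135889563 on the plus strand (GRCm38, GENCODE M21), and no other gene of that annotation overlaps it. In PDGFRα reporter+ cells the log2 signal was 3.98 (number 2) and 2.93 (number 3), and in PDGFRα reporter- cells 4.50 and 3.49. Each PDGFRα reporter+ library lay below the PDGFRα reporter- library of the same number, but PDGFRα reporter+ library 2 lay above PDGFRα reporter- library 3, so that the populations overlapped. The mean was 3.45 ± 0.74 (reporter+) and 4.00 ± 0.71 (reporter-, SD, n = 2 each). The log2 difference was -0.54, a signal lower by 31.4%, below the SD of either population. Within number 2 it was -0.52, and within number 3 it was -0.56.

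*Cryab* encodes αB-crystallin, a lens and muscle chaperone that binds desmin. It lies at chr9:50751325-50756636 on the plus strand. In PDGFRα reporter+ cells the log2 signal was 3.70 (number 2) and 2.84 (number 3), and in PDGFRα reporter- cells 4.21 and 3.37. The order of the libraries was that of *Hspb1*, with the highest value in PDGFRα reporter- library 2 and the lowest in PDGFRα reporter+ library 3. The means were 3.27 ± 0.61 (reporter+) and 3.79 ± 0.60 (reporter-, SD, n = 2 each), a log2 difference of -0.52 or 30.3% less signal, which was again smaller than the spread between libraries. It was -0.51 within number 2 and -0.53 within number 3.

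*Hspb7* encodes a chaperone of heart and skeletal muscle, where it binds filamin C. It lies at chr4:141420779-141425311 on the plus strand, and no annotated gene overlaps it. In PDGFRα reporter+ cells the log2 signal was 3.15 (number 2) and 0.07 (number 3), and in PDGFRα reporter- cells 3.81 and 0.77. Both libraries numbered 2 lay far above both numbered 3. The means of 1.61 ± 2.18 (reporter+) and 2.29 ± 2.15 (reporter-, SD, n = 2 each) gave the most negative log2 difference among the members, -0.68 or 37.6% less signal, and the spread between libraries of 1 population was several times larger. Within number 2 the difference was -0.66, and within number 3 it was -0.70.

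The differences of these 3 genes within number 2 and within number 3 were 0.019 apart for *Cryab*, 0.037 for *Hspb1* and 0.040 for *Hspb7* on the log2 scale. Among the 6 members with 4 values, 3 were lower in PDGFRα reporter+ cells within both numbers, compared with 24.8% of all 14415 genes. The same 3 were lower by at least 0.5 within both numbers, compared with 2.44% of all genes. The family was proposed with these differences known, so that nothing is read from the excess. For 0 of the 6 did both PDGFRα reporter+ libraries lie below both PDGFRα reporter- libraries, which was the case for 8.1% of all genes.

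*Hspb2* encodes a muscle chaperone that binds the myotonic dystrophy kinase. In PDGFRα reporter+ cells the log2 signal was 1.63 (number 2) and 0.20 (number 3), and in PDGFRα reporter- cells 1.48 and 0.65. PDGFRα reporter+ cells thus held both the highest and the lowest value. The log2 difference of -0.15 was made up of 0.16 within number 2 and -0.45 within number 3, around means of 0.91 ± 1.02 (reporter+) and 1.06 ± 0.59 (reporter-, SD, n = 2 each).

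*Hspb6* encodes HSP20, a chaperone of smooth and cardiac muscle that is phosphorylated in response to cyclic nucleotides. It lies at chr7:30552178-30555443 on the plus strand. In PDGFRα reporter+ cells the log2 signal was 3.69 (number 2) and 2.34 (number 3), and in PDGFRα reporter- cells 3.63 and 2.79. As for *Hspb2*, PDGFRα reporter+ cells held both the highest and the lowest value. The log2 difference of -0.19 consisted of 0.06 within number 2 and -0.44 within number 3, around means of 3.02 ± 0.96 (reporter+) and 3.21 ± 0.60 (reporter-, SD, n = 2 each). The gene overlaps *Proser3* on the other strand by 122 bases, *Lin37* on the other strand by 3 bases and the microRNA gene *Gm38670*, which was blank in all libraries. *Proser3* had log2 values between -0.16 and 0.32.

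*Hspb8* encodes HSP22, which works in a complex with the co-chaperone BAG3 in the selective autophagy of damaged proteins. It lies at chr5:116408491-116422864 on the minus strand. In PDGFRα reporter+ cells the log2 signal was 4.42 (number 2) and 4.31 (number 3), and in PDGFRα reporter- cells 4.36 and 4.37. No library stood apart, and the populations overlapped. The means were 4.36 ± 0.07 and 4.36 ± 0.01 (SD, n = 2 each), a log2 difference of 0.0024.

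*Hspb3* encodes a muscle chaperone that pairs with HSPB2, and lies at chr13:113662896-113663676 on the minus strand. It had values in 2 libraries, -5.07 in PDGFRα reporter+ library 3 and -5.03 in PDGFRα reporter- library 2, and was blank in the other two. Both values ranked below the tenth percentile of their library (9.14 and 9.28), and no difference was computed for it. Of the other genes of the family, *Cryaa* and *Odf1* were blank in all libraries, *Hspb9* had a value of -4.95 in PDGFRα reporter+ library 3 only, and *Hspb11*, whose product is a ciliary transport protein, had values between 0.76 and 1.14.

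**Figure D2:**
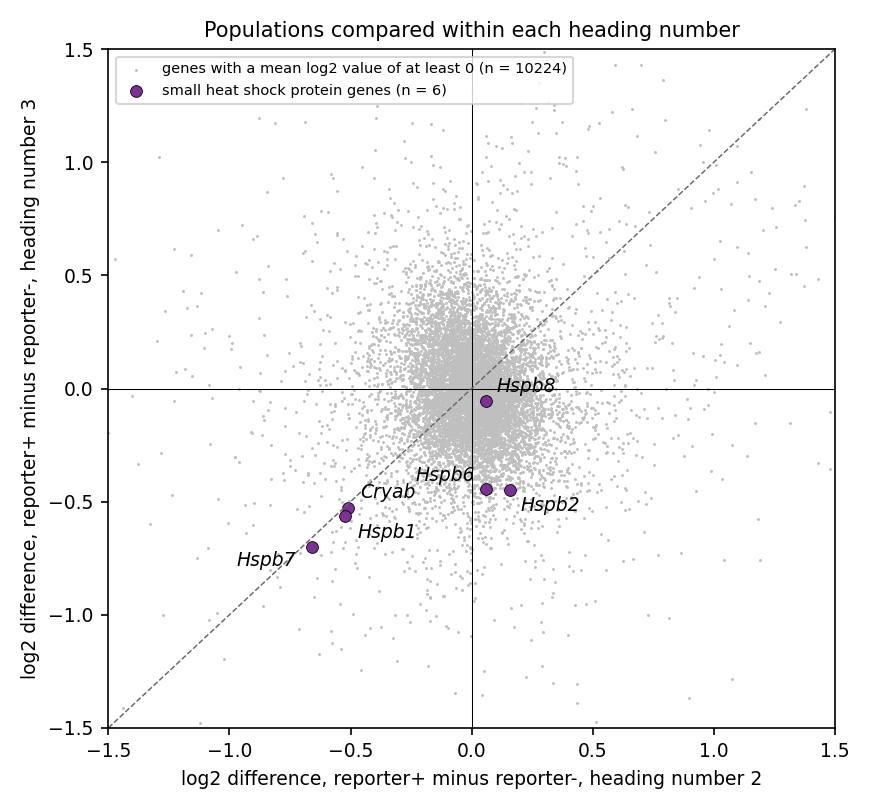
Log2 difference between PDGFRα reporter+ and PDGFRα reporter- cells within heading number 2 (horizontal axis) and within heading number 3 (vertical axis). Grey points are the 10224 genes whose mean log2 value reached 0, of which 75 lie outside the axes, purple points are the 6 members with 4 values, and the dashed line marks equal differences. *Cryab*, *Hspb1* and *Hspb7* lie close to the dashed line at about -0.5 to -0.7, *Hspb2* and *Hspb6* lie together below the horizontal axis, and *Hspb8* lies near the origin.

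Over the 6 members the median log2 difference between the populations was -0.36, compared with -0.0035 over all 14415 genes. With each library left out in turn, which unbalances the heading numbers, it ranged from -0.91, when number 2 of PDGFRα reporter+ cells was left out, to 0.27, when number 3 of these cells was. Leaving out number 3 of PDGFRα reporter- cells gave -0.78, and leaving out their number 2 gave 0.12. The value of *Hspb7* then ran from -2.22 to 0.86, whereas *Cryab* stayed between -0.95 and -0.09.

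*Cryab* and *Hspb2* are neighbors in opposite orientation. In GENCODE M21, *Hspb2* occupies chr9:50751078-50752354 on the minus strand, and 4 of the 6 annotated *Cryab* transcripts begin beyond its start, the nearest 553 bases away. The other 2 *Cryab* transcripts begin inside *Hspb2*, so that the gene spans overlap by 1030 bases and 252 of the 834 exonic bases of *Hspb2* are also exonic in *Cryab* on the other strand. The libraries were stranded, but whether the counting used strand is not given in the sources used here, so reads from the shared bases may not have been told apart. The value of *Cryab* differed between the populations by nearly the same amount in both numbers, whereas that of *Hspb2* differed in opposite directions.

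The values of all 4 libraries had been seen when the family was chosen, so the difference between heading numbers is also given for the members as a description, without a test. Of the 6 members with 4 values, 5 were lower in number 3 in both populations, compared with 32.7% of all genes. For these 5, both libraries numbered 3 lay below both numbered 2, which held for 28.8% of all genes. As between the populations, nothing is read from the excess.

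*Hspb7* had the largest difference among the members, with a log2 difference of -3.06, an 8.36-fold difference in signal. It was -3.08 in the reporter+ and -3.04 in the reporter- libraries, and ranked at percentile 0.305 of all genes.

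*Hspb1* had a log2 difference of -1.03 between numbers 3 and 2, a 2.04-fold difference. For *Cryab* it was -0.86, a 1.81-fold difference. For these 2 genes the populations gave nearly the same difference, with -1.05 (reporter+) and -1.01 (reporter-) for *Hspb1* and -0.87 and -0.85 for *Cryab*.

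*Hspb2* and *Hspb6* had log2 differences of -1.13 and -1.10 between numbers 3 and 2. For both the difference was larger in PDGFRα reporter+ cells, with -1.44 for *Hspb2* and -1.35 for *Hspb6*, than in PDGFRα reporter- cells, with -0.83 and -0.85. With 1 library for each population and number, that difference could not be tested. *Hspb8* had a log2 difference of -0.05, with -0.10 in the reporter+ and 0.0075 in the reporter- libraries.

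**Figure D3:**
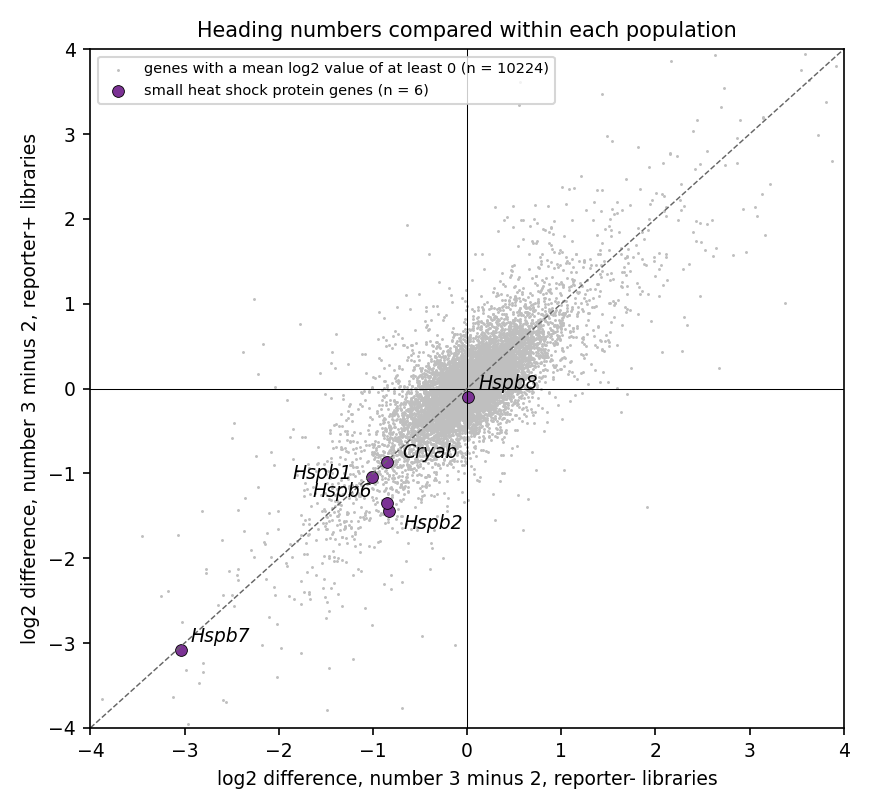
Log2 difference between heading numbers 3 and 2 in PDGFRα reporter- libraries (horizontal axis) and in PDGFRα reporter+ libraries (vertical axis). Grey points are the 10224 genes whose mean log2 value reached 0, of which 26 lie outside the axes, and the dashed line marks equal differences. *Hspb7* lies near -3 on both axes, *Hspb1* and *Cryab* lie close to the dashed line near -1, *Hspb2* and *Hspb6* lie below it, and *Hspb8* lies near the origin.

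Over the 6 members the median log2 difference between heading numbers was -1.06, compared with 0.05 over all genes. The difference between heading numbers was larger in size than that between populations for each of these 6, by 1.65 times for *Cryab*, 1.89 times for *Hspb1* and 4.51 times for *Hspb7*. After centering each gene on its mean, the Euclidean distance in log2 units over the 4 libraries was 0.077 between *Hspb2* and *Hspb6* and 0.17 between *Cryab* and *Hspb1*, and among the 15 pairs of members the largest was 3.09, between *Hspb7* and *Hspb8*. The nearest member was 2.02 away from *Hspb7* and 0.96 away from *Hspb8*. *Cryab* and *Hspb2*, which are neighbors in the genome, were 0.55 apart.

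Outside the family, the genes with the most similar profiles were sought by the same distance over the 4 libraries among the 10218 genes whose mean log2 value reached 0. The nearest to *Cryab* were *Itgb3*, the integrin β3 subunit (0.067), the receptor gene *Met* (0.13) and the LIM homeobox gene *Isl1* (0.15). The nearest to *Hspb1* were *Btg2* (0.17), *Mn1* (0.20) and again *Itgb3* (0.20). *Hspb2* lay nearest to *Igfbp6*, an IGF-binding protein (0.043), and *Nptxr* (0.059), and *Hspb6* to *Nptxr* (0.10) and the kinase gene *Pak1* (0.11), followed for both by *Pdp1* (0.062 and 0.11). *Hspb7* had no neighbor so close, the first being *Cd109* (0.35) and the matrix proteoglycan gene *Prelp* (0.40), then *Prune2* (0.61). The nearest to *Hspb8* were *Tada2a* (0.0072), *Nek9* (0.010) and *Dis3l2* (0.013). The distance was not scaled to how far a gene varied between libraries. Among the members with a value in every library, *Hspb7* varied most and *Hspb8* least. With a pseudocount of 1 before the logarithm, 0 of the 3 neighbors were kept for *Cryab* and *Hspb6* and 1 of 3 for each of the other 4 members, so that these lists depend on the scale.

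The DNA upstream of annotated starts of the members was examined for the sequence that heat shock factors bind. Sequences of 250 bases before a start annotated by RefSeq (GRCm38.p6) were taken, with 6 windows for 5 of the 7 members, not *Cryab* and *Hspb2*. For *Hspb6* both windows lie inside the gene span that GENCODE M21 gives, and for the other 4 the window ends where that span begins. The core of a heat shock element was searched on both strands as GAANNTTC and as TTCNNGAA, and a TATA box as TATAAA. Among 32851 windows of this length, GAANNTTC was found in 6.69%, TTCNNGAA in 7.17% and TATAAA in 12.4%. The windows of *Hspb1*, of *Hspb7* with the largest difference between the numbers and of *Hspb8* with the smallest are shown 5′ to 3′, each ending at the base before the gene start, with matches to GAANNTTC in capitals.

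*Hspb1*, chr5:135887669-135887918, plus strand: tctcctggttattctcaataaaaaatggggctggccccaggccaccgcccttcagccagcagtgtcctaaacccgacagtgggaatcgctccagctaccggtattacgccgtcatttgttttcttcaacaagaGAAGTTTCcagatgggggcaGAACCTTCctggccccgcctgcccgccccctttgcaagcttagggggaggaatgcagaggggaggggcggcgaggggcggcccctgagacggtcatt

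*Hspb7*, chr4:141420529-141420778, plus strand: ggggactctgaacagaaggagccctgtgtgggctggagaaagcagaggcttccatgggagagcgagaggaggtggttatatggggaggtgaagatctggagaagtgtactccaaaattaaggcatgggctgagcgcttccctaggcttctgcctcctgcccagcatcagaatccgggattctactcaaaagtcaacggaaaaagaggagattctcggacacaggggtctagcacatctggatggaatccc

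*Hspb8*, chr5:116422865-116423114, minus strand: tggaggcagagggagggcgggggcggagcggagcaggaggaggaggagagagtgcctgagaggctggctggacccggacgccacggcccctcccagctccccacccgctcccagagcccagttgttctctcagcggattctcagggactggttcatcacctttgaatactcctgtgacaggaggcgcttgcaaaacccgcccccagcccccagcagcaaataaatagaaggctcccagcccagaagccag

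*Hspb1* held 2 matches to GAANNTTC, the first (GAAGTTTC) from base 117 to base 110 before the start and the second (GAACCTTC) from base 97 to base 90. *Hspb7*, *Hspb8* and the first of 2 windows of *Hspb6* held none. The second window of *Hspb6*, chr7:30553051-30553300, held GAAGTTTC from base 120 to base 113 before its RefSeq start and a TATAAA from base 29 to base 24. *Hspb3* held 1 match to GAANNTTC (GAATTTTC, from base 224 to base 217) and a TATAAA from base 11 to base 6. TTCNNGAA was not found in any of the 6 windows. A CArG box, the motif of serum response factor, was found in 0 of the 6 and in 1.47% of all windows. A match is a run of letters and not a bound site, and a window without one can hold other forms of an element.

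The genes that work with small heat shock proteins were taken as lists, which were chosen with earlier results of these data known. In the comparison of PDGFRα reporter+ with PDGFRα reporter- cells by limma, 0% of all 14415 genes passed an adjusted p of 0.05, and 0.909% passed the same threshold before adjustment. The list genes were therefore called in neither direction. With the heading number as a block in the model, 29 genes (0.201%) were called, and again 0 in these lists. Before adjustment, 913 of the 14415 genes passed 0.05 in that model, among them 1 of 18 heat shock genes, 0 of 12 chaperones of the endoplasmic reticulum, 3 of 7 genes around BAG3, 1 of 8 kinases and 4 of 10 cytoskeletal partners.

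The heat shock factors and inducible heat shock genes numbered 18, all with 4 values. Their median log2 difference between the populations was 0.0031, with 6 lower and 1 higher in PDGFRα reporter+ cells within both heading numbers and 11 mixed. None had an unadjusted p under 0.05 without the block. The largest differences in this list were those of *Hspa1b* (-0.49) and *Hspa1a* (-0.43), the stress-inducible HSP70 genes, and of *Hspa4l* (0.41), and the near-identical *Hspa1a* and *Hspa1b* may share reads. *Hspa1b* had log2 values of 2.17 and 1.63 in PDGFRα reporter+ libraries 2 and 3 and of 2.71 and 2.08 in PDGFRα reporter- libraries 2 and 3, the same order of libraries as *Cryab* and *Hspb1*. *Hsf1*, the main stress-responsive factor, had a log2 difference of -0.16.

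Between heading numbers, the list genes were tested with limma in a model that also held the population. An adjusted p under 0.05 was reached by 21.3% of all 14415 genes, and 9.79% of all genes were called lower in number 3. Only 1 residual degree of freedom is left per gene, and with the variance moderated without a trend on the level, or not moderated, 0 genes were called in this comparison, while 3909 and 1661 genes passed an unadjusted p of 0.05. The median of the heat shock list was 0.25. Of its 18 genes, 3 were called lower in number 3, *Hspa1b* (-0.59, adjusted p = 0.0221), *Hspa4l* (-1.17) and *Dnajb4* (-0.45). The 5 called higher in number 3 were the mitochondrial chaperonins *Hspd1* (0.76, adjusted p = 0.00266) and *Hspe1* (0.47), with *Hspa4* (0.55), *Dnaja1* (0.52) and *Dnajb5* (0.77). Of 12 chaperones of the endoplasmic reticulum, 0 were called lower and 3 called higher in number 3, *Hyou1* (0.62), *Pdia4* (0.47) and *Manf* (0.43). Their median difference between the populations was 0.03. In this list the largest differences between the populations were those of *Dnajb9* (0.27), *Dnajc3* (0.22) and *Manf* (0.099).

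The assembly around BAG3, with which HSPB8 works, and its filamin clients had a median log2 difference of -0.23 between the populations over 7 genes, 5 of them lower within both numbers. *Bag3* itself had log2 values of 4.20 and 4.03 in PDGFRα reporter+ libraries 2 and 3 and of 4.30 and 3.87 in PDGFRα reporter- libraries 2 and 3, a difference of 0.03, with -0.10 within number 2 and 0.16 within number 3. The filamin genes *Flnc* and *Flna* had log2 differences of -0.34 and -0.23. *Flnc*, the partner of HSPB7 in muscle, was lower in number 3 by 0.50 (adjusted p = 0.0210 with limma).

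Of the 8 kinases upstream of small heat shock proteins, 0 had an unadjusted p under 0.05 between the populations without the block. The kinase gene *Mapkapk3* had a log2 difference of -0.39, with -0.36 within number 2 and -0.42 within number 3, *Mapk13* had -0.26 and *Mapk11* had -0.14. *Mapk14*, which encodes p38α, and *Mapkapk2* had differences of 0.01 and -0.01. *Mapk13* was lower in number 3 by 0.77 (adjusted p = 0.00666 with limma), and the other 7 were not called there.

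The 10 cytoskeletal partners had a median log2 difference of -0.26 between the populations, with 6 lower and 0 higher in PDGFRα reporter+ cells within both numbers. The largest differences at a mean log2 value of at least 0 were those of the intermediate filament genes *Nes* (-1.67), *Synm* (0.34) and *Lmna* (-0.33). The desmin gene *Des*, the filament partner of CRYAB, had a difference of -2.00 at a mean below 0. *Nes* and *Des* were the 2 genes of this list with an unadjusted p under 0.05 without the block. In number 3, *Vim* (-2.01, adjusted p = 0.000383 with limma), *Synm* (-1.08) and *Lmna* (-0.72) were called lower and *Tuba1a* (0.72) was called higher.

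**Figure D4:**
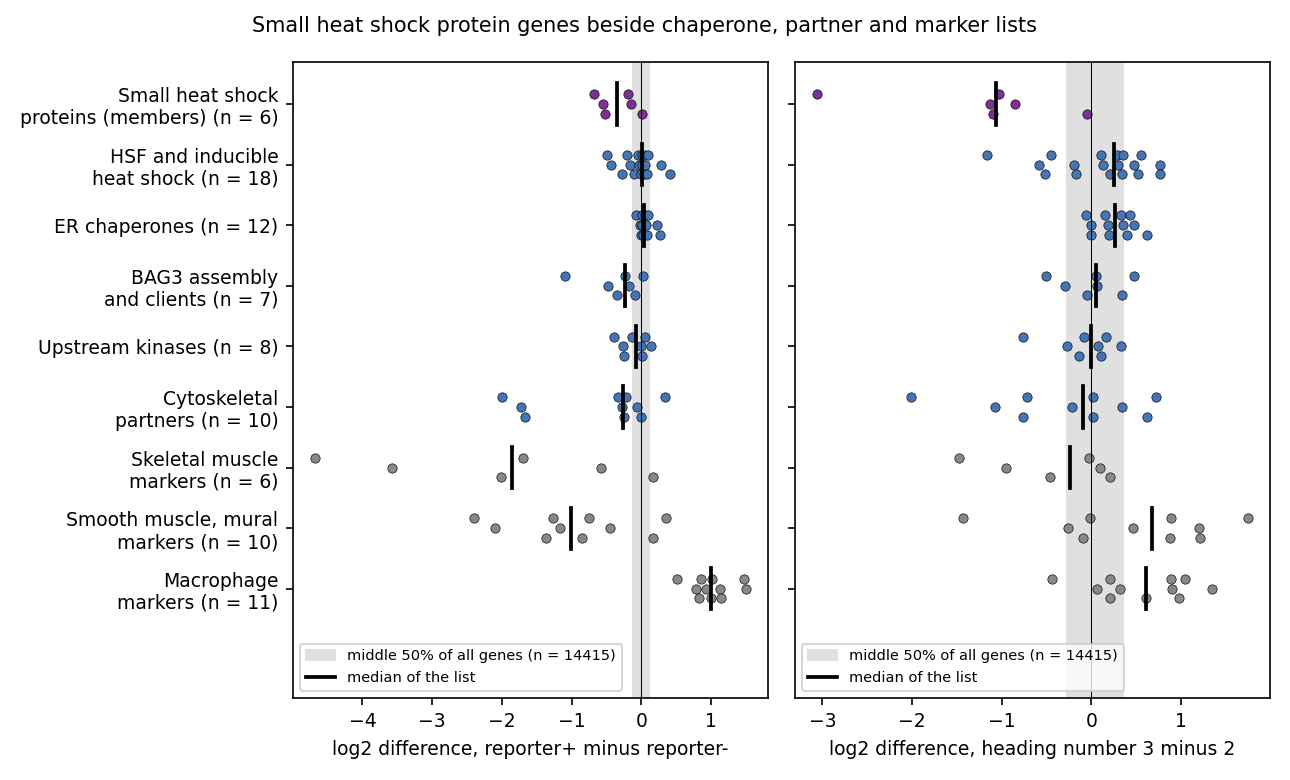
Log2 difference of PDGFRα reporter+ minus PDGFRα reporter- cells (left) and of heading number 3 minus 2 (right) for the members (purple), partner lists (blue) and markers of other cells (grey), 1 point per gene with 4 values. The bar is the median of a list and the shaded band the middle 50% of all genes. The members have a median of -0.36 on the left and of -1.06 on the right, the medians of skeletal and smooth muscle markers lie to the left of 0 between the populations, and the median of macrophage markers lies to the right.

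Several members are muscle genes, and most muscle markers with 4 values were lower in PDGFRα reporter+ cells within both numbers. Without the block, 0 of the markers of muscle, macrophages and endothelial cells were called by limma between the populations. With the block, *Actg2* was called lower (adjusted p = 0.04725) and the macrophage gene *C1qb* higher (adjusted p = 0.0437) in PDGFRα reporter+ cells. The summed signal of the 13 skeletal muscle markers, on a log2 scale, was 0.83 and 0.57 in PDGFRα reporter+ libraries 2 and 3 and 2.12 and 1.18 in PDGFRα reporter- libraries 2 and 3. Of the 6 with 4 values 5 were lower in PDGFRα reporter+ cells within both numbers, *Myh1* by 4.68 on the log2 scale, whereas the defining genes *Pax7*, *Myf5* and *Myh2* were blank in all libraries and *Myod1* and *Myog* in 1 each. For the 10 smooth muscle and mural markers, the sum was 5.52 and 6.40 in PDGFRα reporter+ libraries 2 and 3 and 6.29 and 6.67 in PDGFRα reporter- libraries 2 and 3, with 8 lower in PDGFRα reporter+ cells within both numbers. These smooth muscle sums were higher in number 3 in both populations, where 5 members were lower. By limma 4 of the 10 were called higher in number 3, *Acta2* by 1.75 (adjusted p = 0.00135). The gene *Smtn* was the 1 called lower, with a difference of -1.43 (adjusted p = 0.000158). Macrophage markers lay mostly in the other direction, with 10 of 11 higher in PDGFRα reporter+ cells within both numbers. Their summed signal was 7.89 and 8.11 compared with 6.55 and 7.46. Each sum is set mainly by its highest genes and is compared between libraries only, and that of macrophages rests mostly on *Lyz2*, with 7.65 and 7.88 compared with 6.27 and 7.25. Of the 7 endothelial markers with 4 values, 5 were lower and 0 higher in PDGFRα reporter+ cells within both numbers, with a median log2 difference of -1.82 and a summed signal of 1.40 and 1.68 compared with 1.67 and 2.66. Between heading numbers, 4 macrophage markers and 1 endothelial marker were called higher in number 3 by limma, and 0 were called lower. Of the 10 periosteal stromal genes, 2 were called higher and 3 lower, where 21.3% of all genes were called in either direction. The part of other cells in the differences of the small heat shock protein genes was not tested.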

How the data were processed

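Total RNA of 4 libraries was sequenced by the authors from stranded paired-end Illumina libraries. The submitters' processing notes name bcl2fastq 2.17.1.14, Partek 7.0 and the build GRCm38.p6, whereas aligner, counting, annotation and filters are not given in the sources used here. The authors deposited 1 quantile normalized log2 value per gene symbol and library, and left a blank where no signal was found. Quantile normalization gives all libraries the same distribution, so a shift of the whole transcriptome cannot be seen. No counts were used, so that depth, and with it counting error, is unknown.

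Headings give the population and a number (2 or 3) that the labels do not hold, so columns were assigned to populations only. The members and lists were chosen with earlier results of these data known. Differences of means were computed over 14415 genes, those without a blank. Tests used limma 3.58.1 under R 4.3.3 (eBayes with a trend, two-sided, Benjamini-Hochberg adjustment over all these genes, threshold 0.05), between populations without a block and between heading numbers with population as a term. Tests of the members themselves are not reported, since their values were used to choose them. The scripts were tested on simulated data. With 2 libraries against 2, an exact permutation p cannot go below 0.333, so none was used. Named from the lists are genes that passed the test, otherwise the 3 with the largest difference at a mean of at least 0, and any others were chosen after their values were seen. The 3 genes nearest to each member were named by distance. Some genes that these rules would name are not reported here. Alternatives were median centering, a pseudocount of 1, a filter at a mean of 0, blanks set to the library minimum, other variance models, a block, and leaving out each library. Positions are from GENCODE M21. Summaries used Python 3.11.15, numpy 2.4.6 and pandas 2.3.3, and plots matplotlib 3.10.9.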

Additional observations from a re-analysis of the deposited data

Results flagged for a closer look

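For 3 members the difference between PDGFRα reporter+ and PDGFRα reporter- cells had opposite signs in the 2 heading numbers. *Hspb2* had a log2 difference of 0.16 within number 2 and -0.45 within number 3, which are -0.61 apart. *Hspb6* had 0.06 and -0.44, which are -0.51 apart. *Hspb8* had 0.06 and -0.05, which are -0.11 apart. With 1 library for each population and number, these differences between the numbers were not tested.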

How the results depend on the processing

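Between the populations, 0 genes were called under all alternatives but 1, beside 62 to 277 genes with an unadjusted p under 0.05. The exception was the heading number as a replicate block, with 29 genes called. The labels do not say whether the number pairs libraries of different populations. Across genes, the differences between numbers in the 2 populations had a correlation of 0.681. Of the partner lists, 0 genes were called with or without the block. Of the markers of other cells, 0 were called without it. With it, *Actg2* was called lower and *C1qb* higher in PDGFRα reporter+ cells. Between heading numbers, 3065 genes were called, compared with 1825 with a pseudocount of 1, 819 with blanks set to the library minimum, 0 without a trend and 0 without moderation. The cause was not tested. Averaged over both populations, each of the 6 members with 4 values was lower in number 3 under every alternative that kept all libraries. For *Hspb8* this was by only 0.046 to 0.078 on the log2 scale. With the deposited values, its difference in the reporter- libraries was 0.0075. Leaving out 1 library left no residual degree of freedom in that model and gave no calls, and the median of the members ran from -1.20 to -0.85. The median between the populations ran from -0.91 to 0.27 with each library left out. It was -0.23 within number 2, -0.49 within number 3 and -0.19 with blanks set to the library minimum, when *Hspb3* is included.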
